A study of Mus musculus with 40 samples.

Results

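The genes described are 10 members of the fibroblast growth factor (FGF) system, the ligands Fgf3, Fgf4, Fgf5, Fgf9, Fgf10, Fgf15, Fgf18 and Fgf20 and the receptors Fgfr1 and Fgfr2, out of 55536 annotated mouse genes. They were listed by name, with earlier results of these data known. Both H3K27me3 and H3K4me3 were read at their promoters. H3K27me3 is the repressive mark written by the Polycomb PRC2 complex, and H3K4me3 marks active or poised promoters. A promoter was the 3000 bp window from 2000 bp upstream to 1000 bp downstream of a transcript start in mm10. The value of a gene in a library is the number of base pairs of its best covered promoter that lay under peaks of the mark, so it runs from 0 to 3000 bp.

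The samples were cultures of oligodendrocyte precursor cells (OPCs), the dividing glial cells that give rise to oligodendrocytes. Brains came from litters at postnatal day 5 to 7, labeled AMGFAP-Cre;K27M, where the study itself names the Cre line hGFAP-Cre. Tissue was pooled by genotype and by region, either brainstem or dorsal telencephalon (cortex, corpus callosum and hippocampus, called telencephalon here), and OPCs were immunopanned with an antibody to PDGFRa after endothelial cells and microglia were depleted. K27M cultures carried the oncohistone H3.3 K27M, a lysine-to-methionine change of histone H3.3 found in midline gliomas. It was switched on by a Cre recombinase under the human GFAP promoter, which is active in neural progenitors, and controls were littermates. All cultures were kept in proliferation medium without differentiation, so both genotypes received the same growth factors. Control and K27M libraries of both marks existed for brainstem cultures 59 and 61 and telencephalon cultures 59, 60 and 61, which gives 20 libraries and 5 matched pairs per mark. Each culture was a pool of animals, so the spread between cultures is not the spread between single animals. Culture numbers 59 and 61 occur in both regions, and the sources used here do not say whether a number stands for the same litters. The 5 pairs may therefore not be independent, and the tests treat them as if they were.

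H3K27me3 libraries held 12715 to 64808 peaks in controls and 4739 to 15753 in K27M, and each K27M library had fewer than its matched control. H3K4me3 libraries held 20961 to 31200 peaks. The telencephalon culture 59 control stood apart, with the fewest H3K27me3 peaks and the fewest H3K4me3 peaks (22722) of any control. Telencephalon 59 K27M had the fewest H3K27me3 peaks of any library (4739), so a missing peak in this culture carries less weight. Promoters of 7 of 7 OPC genes (Pdgfra, Cspg4, Olig1, Olig2, Sox10, Nkx2-2 and Gpr17) carried H3K4me3 in every library. H3K4me3 was found in no library at 4 of 5 microglial and 3 of 4 endothelial genes, but it was in every library at 4 of 4 neuronal and 1 of 4 astrocyte genes.

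FGF ligands are secreted proteins that bind receptor tyrosine kinases of the FGFR family together with heparan sulfate, and receptor activation feeds the Ras-MAP kinase and PLC-gamma pathways. In the nervous system they pattern the early brain, and FGF signaling acts on OPC proliferation and differentiation. Fgf3, Fgf4, Fgf5, Fgf10 and Fgf20 are paracrine ligands with restricted expression in development, Fgf9 and Fgf20 belong to 1 subfamily, Fgf15 is the mouse ortholog of human FGF19, an endocrine ligand in the adult gut, and Fgf18 acts in skeletal and lung development. Developmental regulators of this kind often carry H3K27me3 and H3K4me3 together, a state called bivalent.

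Upstream sequences are shown for 2 ligands whose H3K27me3 coverage was as wide in K27M as in controls (Fgf4 and Fgf9). They are also shown for 2 that lost promoter coverage in every pair (Fgf5 and Fgf10). The sequences allow the DNA before the starts to be compared, and not all of it lay under H3K27me3 peaks. Each is the 250 bases before the RefSeq start in GRCm38.p6, on the plus strand, 5′ to 3′, with the CG dinucleotides in capitals. Promoters of 7 of the 10 genes were in the RefSeq table, and those of Fgf15, Fgf20 and Fgfr1 were not matched. The positions are chr7:144861136-144861385 for Fgf4, chr14:58072436-58072685 for Fgf9, chr5:98253934-98254183 for Fgf5 and chr13:118714449-118714698 for Fgf10.
Fgf4: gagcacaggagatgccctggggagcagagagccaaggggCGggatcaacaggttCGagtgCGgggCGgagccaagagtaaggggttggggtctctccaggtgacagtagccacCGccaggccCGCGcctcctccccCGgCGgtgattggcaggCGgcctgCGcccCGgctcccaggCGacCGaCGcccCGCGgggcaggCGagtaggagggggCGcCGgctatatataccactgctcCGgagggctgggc
Fgf9: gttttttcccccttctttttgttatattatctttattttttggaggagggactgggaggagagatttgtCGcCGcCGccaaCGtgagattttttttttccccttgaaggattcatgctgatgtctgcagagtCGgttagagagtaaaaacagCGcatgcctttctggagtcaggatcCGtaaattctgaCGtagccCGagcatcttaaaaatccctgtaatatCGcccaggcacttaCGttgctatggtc
Fgf5: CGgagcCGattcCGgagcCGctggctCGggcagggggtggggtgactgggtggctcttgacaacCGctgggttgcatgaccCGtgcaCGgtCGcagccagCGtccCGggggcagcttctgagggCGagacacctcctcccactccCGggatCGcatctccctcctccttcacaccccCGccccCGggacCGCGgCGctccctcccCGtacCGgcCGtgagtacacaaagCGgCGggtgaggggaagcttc
Fgf10: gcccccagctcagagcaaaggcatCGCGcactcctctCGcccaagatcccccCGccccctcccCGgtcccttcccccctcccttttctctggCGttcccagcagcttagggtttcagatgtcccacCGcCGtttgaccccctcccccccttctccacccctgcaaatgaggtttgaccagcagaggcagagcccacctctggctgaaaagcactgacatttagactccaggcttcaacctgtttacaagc

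These 250 bases held 21 CG dinucleotides in Fgf4, 11 in Fgf9, 24 in Fgf5 and 8 in Fgf10, against a median of 6 over 32851 RefSeq promoters. The GC box GGGCGG, searched on both strands (CCGCCC on the other), was found in Fgf4, Fgf5 and Fgf10 and not in Fgf9, and 32.7% of all promoters held it. CG number did not separate the pairs of genes, since Fgf5 had the most and Fgf10 the fewest. H3K27me3 covered all 250 bases of Fgf4 in 10 of 10 libraries. At Fgf9 it covered 3 of them in the telencephalon 59 control, 150 in telencephalon 59 K27M and all 250 in every other library. At Fgf5 it covered 0 and 139 bases in brainstem 59 and 61 controls. The telencephalon 59, 60 and 61 controls had 0, 250 and 250 at Fgf5, and each K27M library had 0. At Fgf10 it covered all 250 bases in 4 of 5 controls and in 1 of 5 K27M libraries (telencephalon 61), while H3K4me3 covered them in 10 of 10. Over the whole 3000 bp promoter, Fgf20 had the fewest CpG of the 10 genes (65) and Fgf18 the most (198), and the median of all genes with an H3K27me3 promoter peak in any library was 48.

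H3K27me3 was present at the promoters of 6 of the 10 genes in every one of the 10 libraries, all of them ligands (Fgf3, Fgf4, Fgf9, Fgf10, Fgf15 and Fgf20). Among the 14153 genes with such a peak in at least 1 library, 12.9% had one in every library. Fgf5 had a peak in 9 libraries and lacked it in brainstem 59 K27M. Fgf18 and the receptor Fgfr2 had peaks in 3 controls and in no K27M library, and Fgfr1 only touched a peak in 2 controls. A peak in controls and in no K27M library was found for 66% of the 14153 genes, so the 3 genes with this pattern are fewer than that share. When peaks had to reach a fold enrichment of 3, the number of genes marked in every library fell from 6 to 1, which was Fgf4, and 10.5% of genes with such a peak in any library then had one in every library.

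**Figure D1:**
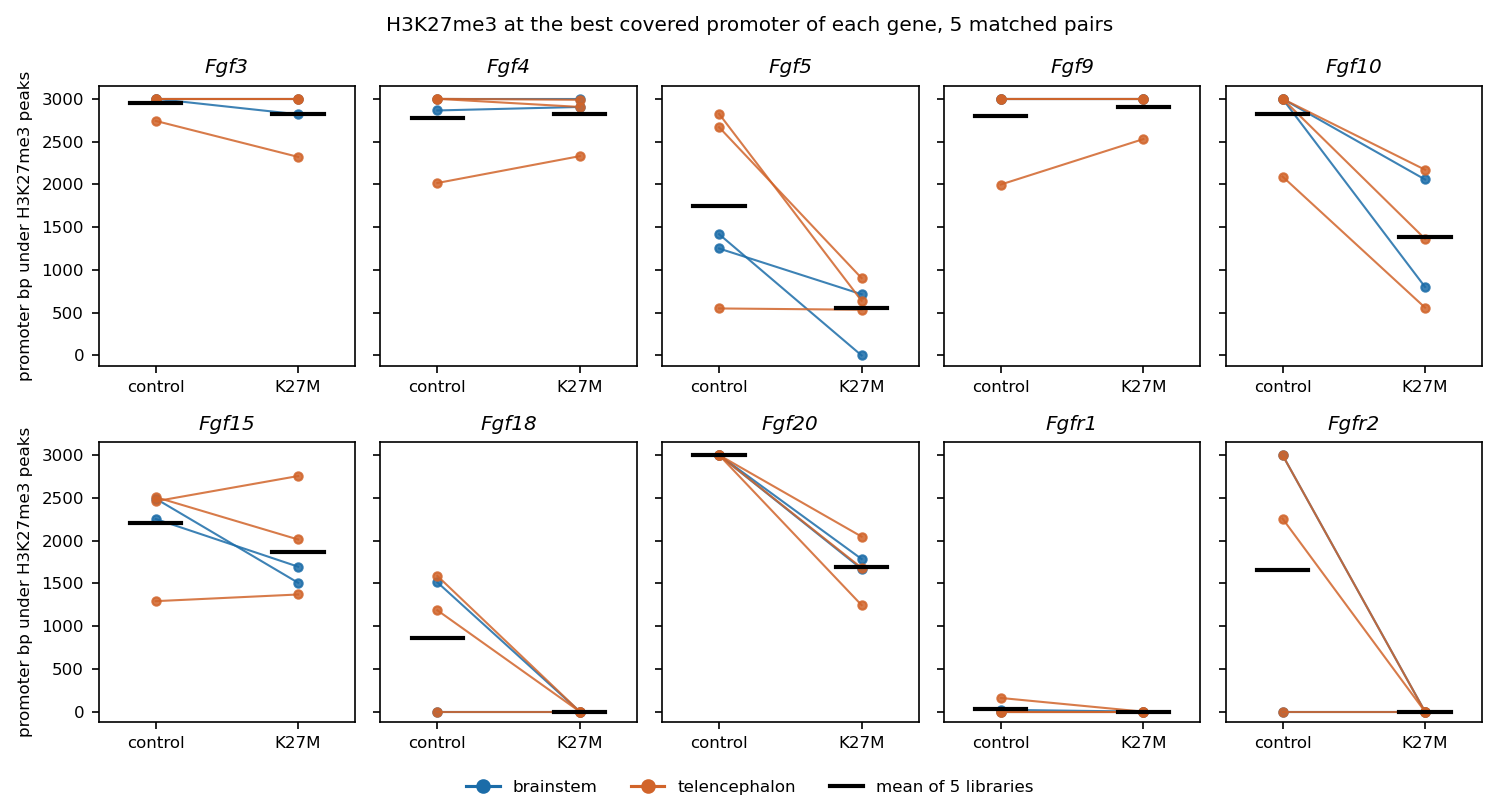
Base pairs of the best covered promoter under H3K27me3 peaks (y axis, 0 to 3000 bp) in control and K27M libraries (x axis), with a line for each of the 5 matched pairs, colored by region, and a black bar for the mean of 5 libraries. Fgf3, Fgf4 and Fgf9 lie between 1998 and 3000 bp in both genotypes, with their lowest values in telencephalon 59, Fgf5, Fgf10 and Fgf20 fall in all 5 pairs, and Fgf18, Fgfr1 and Fgfr2 are at 0 in all 5 K27M libraries.

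K27M and control were compared to ask which of these promoters lost H3K27me3 when the oncohistone was expressed. Fgf5, Fgf10 and Fgf20 were lower in K27M in 5 of 5 pairs, and no gene of the 10 was higher in 5 of 5. Of all genes tested, 9.53% were lower and 0.12% higher by the same rule, and the mean difference had a median of -594.9 bp over the 10 genes and -366.4 bp over all genes tested. With 5 pairs the two-sided exact sign-flip permutation test cannot go below p = 0.0625, so no gene can pass 0.05, and the p adjusted over all 14153 genes was 0.526 for these 3 ligands. The 3 calls were the same when every library was cut to the same number of its most significant peaks (4739), where 9.76% of genes were lower in 5 of 5.

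Fgf10 is a ligand known for its part in limb and lung budding. Its H3K27me3 coverage was 3000 bp in brainstem 59, brainstem 61, telencephalon 60 and telencephalon 61 controls and 2091 bp in telencephalon 59. In K27M it was 801 bp in brainstem 59, 2057 bp in brainstem 61, 559 bp in telencephalon 59, 1363 bp in telencephalon 60 and 2171 bp in telencephalon 61. All controls but telencephalon 59 were above all K27M libraries. The mean difference was -1428 bp ± 557 (SD, n = 5 pairs; exact sign-flip p = 0.0625). The protein-coding start lies at chr13:118714699, and the full length of the peaks that reached this promoter fell from 7.93 kb ± 2.18 in controls to 1.98 kb ± 1.20 in K27M (SD, n = 5 each). What remained in K27M was in 2 separate blocks in 3 of 5 libraries. The gap spanned the start in brainstem 61 and telencephalon 60 and lay just upstream of it in telencephalon 61, and the telencephalon 59 control also had a gap over the start.

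Fgf20 is a ligand of the Fgf9 subfamily. Its own promoter, at the start chr8:40286953 on the minus strand, was fully covered (3000 bp) in 5 of 5 controls. K27M libraries had 1669 bp in brainstem 59, 1785 bp in brainstem 61, 1246 bp in telencephalon 59, 2047 bp in telencephalon 60 and 1681 bp in telencephalon 61. The groups did not overlap, and the difference was -1314 bp ± 289 (SD, n = 5 pairs; exact sign-flip p = 0.0625). Peak length fell from 7.61 kb ± 1.59 to 2.10 kb ± 0.574. The kept block lay over the transcript start in every K27M library, unlike at Fgf10. In a window of 1000 bp on each side, and among peaks of at least 3-fold enrichment, Fgf20 was lower in 4 of 5 pairs and the call was lost. With these settings 7.14% and 2% of all genes tested were lower in 5 of 5 pairs.

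Fgf5, a ligand best known for ending the growth phase of hair, had less coverage to begin with. Controls had 1417 bp in brainstem 59, 1250 bp in brainstem 61, 549 bp in telencephalon 59, 2668 bp in telencephalon 60 and 2824 bp in telencephalon 61. K27M libraries had 0 bp, 715 bp, 534 bp, 904 bp and 639 bp in the same order. Telencephalon 59 differed by only 15 bp, and the other 4 pairs fell by 535 bp or more. The difference was -1183 bp ± 892 (SD, n = 5 pairs; exact sign-flip p = 0.0625), and the nearest remaining peak lay downstream of the start in every K27M library. The spread of the controls over cultures was wide, with the telencephalon 59 control below 3 of the K27M libraries.

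**Figure D2:**
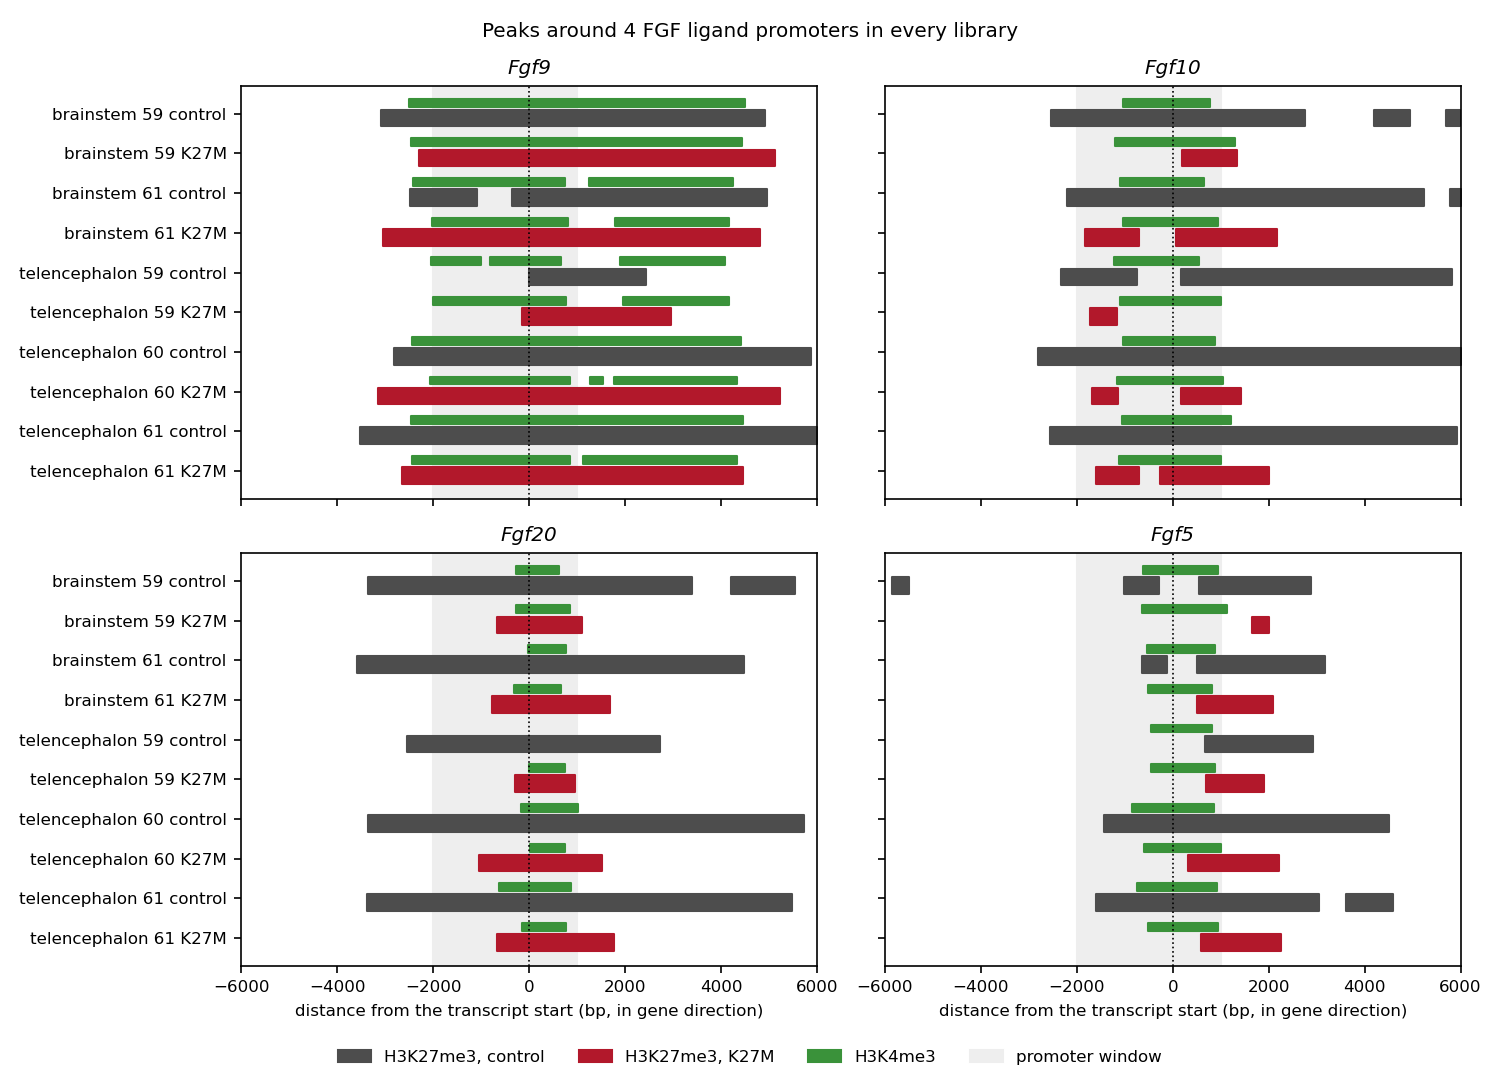
Peaks within 6 kb of the transcript start (x axis, bp in gene direction) at Fgf9, Fgf10, Fgf20 and Fgf5, 1 row per library, with H3K27me3 in gray (control) or red (K27M), H3K4me3 in green and the promoter window shaded. H3K27me3 of Fgf9 is similar in both genotypes, that of Fgf20 narrows to a block over the start, that of Fgf5 lies downstream of the start in K27M, and that of Fgf10 is left as 2 blocks in 3 K27M libraries, 1 downstream block in brainstem 59 and 1 upstream block in telencephalon 59.

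Fgf3, Fgf4 and Fgf9 kept wide H3K27me3 coverage in K27M. Fgf9, first described as glia-activating factor, had 3000 bp in 4 controls and 1998 bp in telencephalon 59, and 3000 bp in 4 K27M libraries and 2529 bp in telencephalon 59. Fgf3 ran from 2742 to 3000 bp in controls and from 2321 to 3000 bp in K27M, and Fgf4 from 2016 to 3000 bp and from 2330 to 3000 bp. The groups overlapped for all 3 genes, and the differences were -120.4 bp ± 185 for Fgf3, 49.8 bp ± 156 for Fgf4 and 106 bp ± 237 for Fgf9 (SD, n = 5 pairs). A value cannot pass 3000 bp, so where a control was already at 3000 bp a gain could not have been seen. In telencephalon 59, where the controls were lower, Fgf9 rose by 531 bp and Fgf4 by 314 bp in K27M, and Fgf3 fell by 421 bp. Fgf15 was intermediate, with 2491, 2253, 1292, 2460 and 2509 bp in controls and 1507, 1695, 1370, 2755 and 2013 bp in K27M in the order above, a difference of -333 bp ± 516 that was lower in 3 of 5 pairs.

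The length of peaks that reach a promoter has no such ceiling, and this measure was added after the coverage values were seen. It was shorter in K27M in 5 of 5 pairs at 6 genes, namely Fgf3, Fgf4, Fgf5, Fgf10, Fgf15 and Fgf20. Of all genes with a peak at their own promoter in any library, 14.5% were shorter in 5 of 5, and of those with a peak in every library, 47.3%. Fgf4 peaks measured 9.17 kb ± 2.00 in controls and 7.34 kb ± 1.26 in K27M, and Fgf3 peaks 9.94 kb ± 5.39 and 5.19 kb ± 1.14 (SD, n = 5 each). Fgf15 peaks went from 5.63 kb ± 2.82 to 3.31 kb ± 1.11. Fgf9 was shorter in 3 of 5 pairs, with 7.11 kb ± 2.83 and 6.78 kb ± 2.11. Telencephalon 61 weighed most in these means. Without it the mean difference was -2.63 kb at Fgf3 against -4.76 kb over 5 pairs, -1.41 kb against -2.31 kb at Fgf15, and 0.24 kb against -0.33 kb at Fgf9. Of the 3 genes with the widest coverage in K27M, Fgf3 and Fgf4 had shorter peaks in every pair and Fgf9 did not.

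The peak caller's fold enrichment, which compares a peak with its own input and is averaged over the peak, was also read at the 6 ligands marked in every library. At Fgf4 it was 8.59, 7.34, 3.51, 13.6 and 8.84 in controls and 16.5, 22.4, 6.85, 16.9 and 20.4 in K27M (brainstem 59 and 61, then telencephalon 59, 60 and 61), so it was higher in K27M in 5 of 5 pairs. On the log2 scale, K27M over control averaged 1.01 ± 0.47 at Fgf4, 0.80 ± 0.24 at Fgf9 and 0.71 ± 0.40 at Fgf15 (SD, n = 5 pairs), each higher in 5 of 5, and 0.91 ± 0.60 at Fgf3, higher in 4 of 5. It was -0.26 ± 0.44 at Fgf10 and -0.18 ± 0.23 at Fgf20, lower in 3 and 4 of 5 pairs. Of 1820 genes with a peak in every library, 46.4% were higher and 3.68% lower in 5 of 5 pairs, with a median log2 ratio of 0.43. Fold enrichment is scaled within each library and peaks differ in length between genotypes, so these ratios do not give amounts of the mark per cell.

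**Figure D3:**
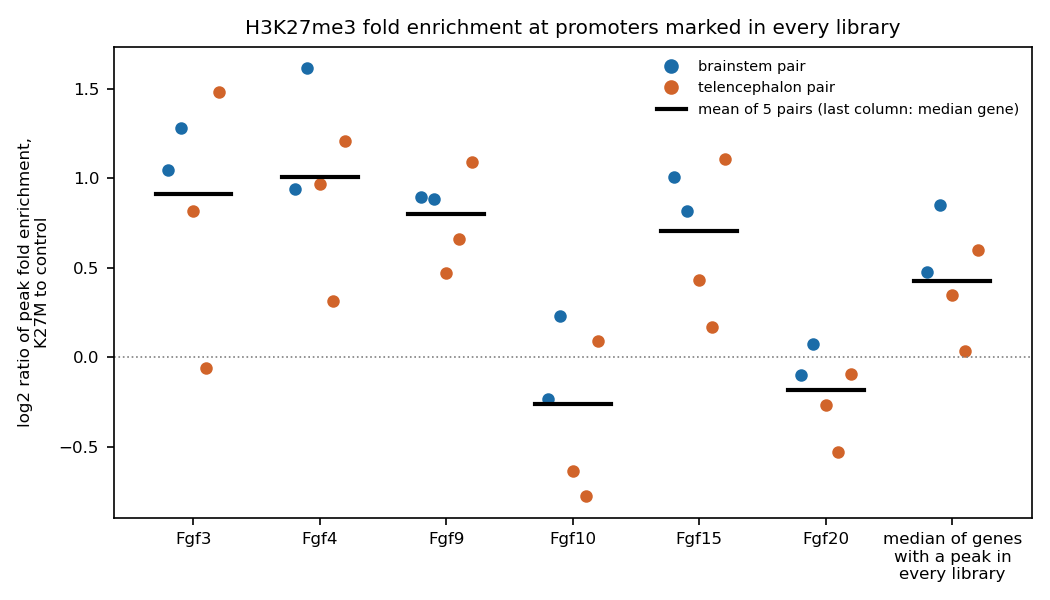
Log2 ratio of H3K27me3 fold enrichment, K27M to control (y axis), at the 6 ligands marked in every library and for the median of all genes marked in every library (x axis), with a point per pair colored by region and a black bar for the mean. Fgf3, Fgf4, Fgf9 and Fgf15 have means between 0.71 and 1.01, and Fgf10 and Fgf20 lie below 0 on average.

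Fgf3, Fgf4 and Fgf15 are neighbors on chromosome 7, within 64.9 kb (chr7:144836083-144900953), so they are not independent examples. The own promoter of Fgf4 starts 22.8 kb downstream of that of Fgf3, and that of Fgf15 35.1 kb further. No H3K27me3 interval reached 2 of the 3 promoters in any of the 10 libraries. Controls had 30058, 22309, 12960, 29286 and 41345 bp of this stretch under peaks and K27M libraries 16203, 15949, 11507, 21399 and 18262 bp, in the order above. The difference was -10.5 kb ± 8.30 (SD, n = 5 pairs; exact sign-flip p = 0.0625) and was negative in 5 of 5 pairs. Separate peaks between the 3 blocks were found in 4 controls and in 4 K27M libraries (brainstem 61 and telencephalon 59, 60 and 61, with 1 each), and each gene kept its own block.

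**Figure D4:**
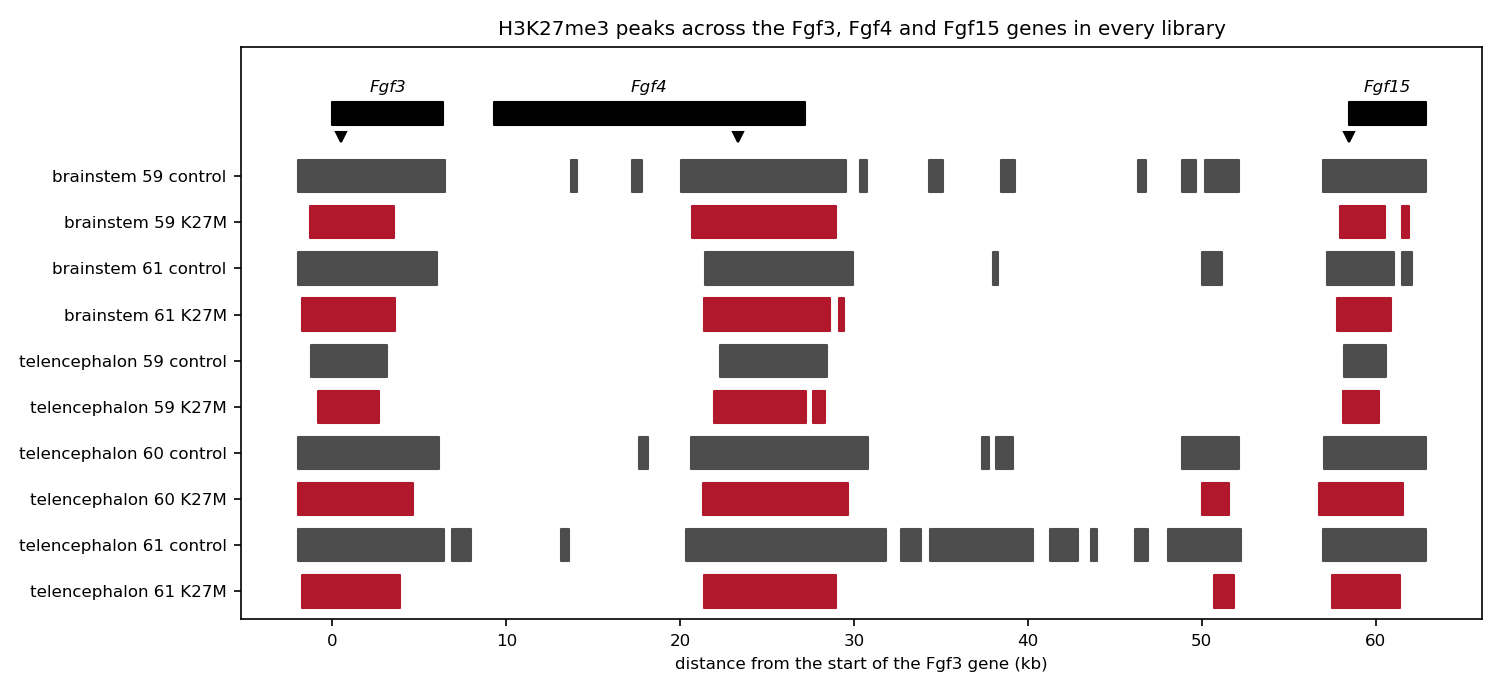
H3K27me3 peaks across Fgf3, Fgf4 and Fgf15, 1 row per library (gray control, red K27M), against distance from the start of the Fgf3 gene in kb, with genes as black bars, own promoter starts as triangles and peaks cut off at the ends of the stretch. A block at each of the 3 promoters is present in all 10 libraries, and short peaks between the blocks are more numerous in 4 controls than in their K27M libraries, while the telencephalon 59 control has none.

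Within the control-covered bases of a promoter, the bases that kept H3K27me3 in K27M were compared with those that lost it, a comparison chosen after the maps were seen. At Fgf20 the kept bases had 3.41 ± 0.379 CpG per 100 bp and the lost bases 0.612 ± 0.156 (SD, n = 5 pairs), higher in 5 of 5. At Fgf10 the order was not the same, with 2.41 ± 0.959 kept and 3.13 ± 0.494 lost, and kept bases higher in 1 of 5. Of 283 genes with at least 100 bp of each in every pair, 59.7% had more CpG in the kept bases in 5 of 5. Fgf15 had kept bases richer in CpG in 3 of 3 pairs with enough bases, Fgf3 in 2 of 2 and Fgf5 in 1 of 3.

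Fgf18 and Fgfr2 had H3K27me3 in 3 controls, brainstem 59, telencephalon 60 and telencephalon 61, which are the 3 libraries with the most H3K27me3 peaks (54227, 49615 and 64808). Fgf18 coverage there was 1512, 1185 and 1587 bp, and Fgfr2 coverage 3000, 3000 and 2257 bp. All other libraries were at 0 for both genes, including the brainstem 61 and telencephalon 59 controls. With every library cut to 4739 peaks, the difference by K27M was -237 bp at Fgf18 and -600 bp at Fgfr2, each lower in 1 pair. With equal peak numbers within each pair, an alternative chosen after seeing the data, it was -554.4 and -1200 bp, each lower in 2 pairs. The fold enrichment of these peaks was 2.53 to 3.37 at Fgf18 and 2.47 to 3.24 at Fgfr2. The differences by K27M were -857 bp ± 797 for Fgf18 and -1651 bp ± 1538 for Fgfr2 (SD, n = 5 pairs; exact sign-flip p = 0.25 for both), lower in 3 of 5 pairs and 0 in the other 2. Over the 10 libraries the genes on other chromosomes with the most similar H3K27me3 coverage were Calb2, Zfp821 and Dagla for Fgf18 and Vsir, Aldh3a2 and Tram2 for Fgfr2, all with r of 1.00, and 1258 of 5741 and 1006 of 5734 protein-coding genes had r above 0.9, since the same 3 libraries set it.

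Fgfr1, a receptor tyrosine kinase that binds many FGF ligands, had 22 bp of H3K27me3 in the brainstem 59 control and 160 bp in the telencephalon 61 control, both at an upstream start (chr8:25513654), and 0 bp elsewhere. At its own promoter (chr8:25518759) it had none in any library, beside 1023 to 1580 bp of H3K4me3.

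H3K4me3 was found at a promoter of 8 of the 10 genes in every library, the exceptions being Fgf3 and Fgf4. Of the 20007 genes with an H3K4me3 promoter peak in at least 1 library, 79.6% had one in every library. Fgf20 is among the 8 only through a window beside Micu3, since its own promoter had 0 bp in the telencephalon 59 control. Fgf3 had none in telencephalon 59 of either genotype, and Fgf4 had 1261 and 932 bp in the telencephalon 60 and 61 controls, 341 bp in telencephalon 61 K27M and 0 in the other 7 libraries. No gene of the 10 was lower in K27M in 5 of 5 pairs, where 0.665% of 20007 genes were, and Fgf10 and Fgfr1 were higher, where 5.05% were. Fgf10 had 1803, 1739, 1765, 1926 and 2067 bp in controls and 2197, 1980, 2104, 2157 and 2113 bp in K27M in the order above. The difference was 250 bp ± 133 (SD, n = 5 pairs; exact sign-flip p = 0.0625, adjusted over all genes 0.902). At Fgfr1 it was 41.0 bp ± 30.4, with overlapping groups (2101 to 2567 bp and 2142 to 2658 bp). In this window Fgf10 thus had less H3K27me3 and more H3K4me3 coverage in the same 5 pairs. The H3K4me3 calls depended on the window. With 1000 bp on each side, H3K4me3 was higher in K27M in 4 of 5 pairs at Fgf10 and in 0 at Fgfr1. With 5000 bp on each side, it was higher in 4 and 3 of 5 pairs. The 2 marks shared 856 to 2067 bp of the Fgf10 promoter in controls and 0 to 1690 bp in K27M.

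**Figure D5:**
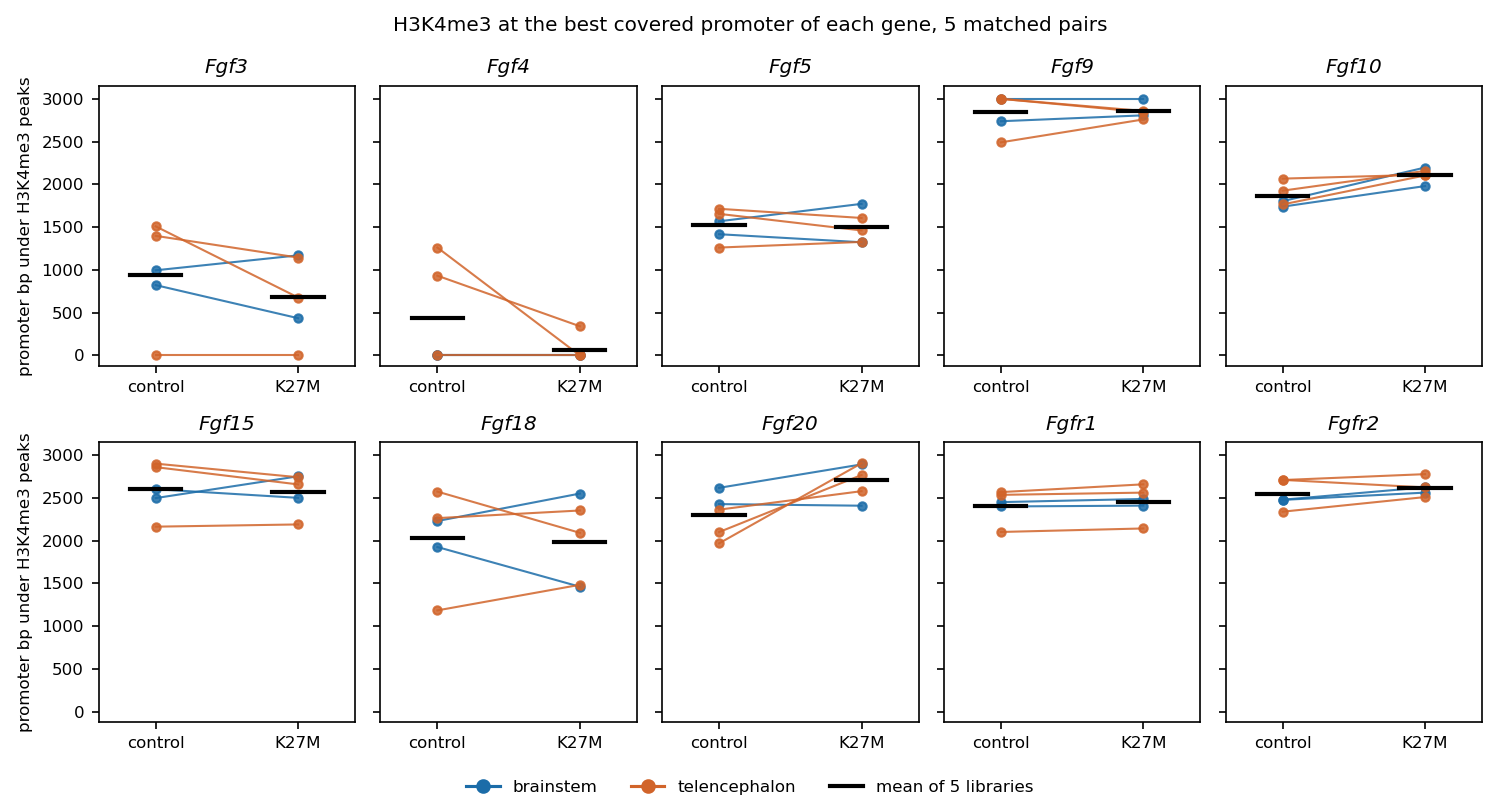
Base pairs of the best covered promoter under H3K4me3 peaks (y axis, 0 to 3000 bp) in control and K27M libraries, drawn as for H3K27me3. Fgf10 rises in all 5 pairs, Fgf3 and Fgf4 have libraries at 0, and the other 7 genes are above 1000 bp in every library.

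At Fgf20 and Fgfr2 the best covered H3K4me3 window lies at another gene's promoter. The best window of Fgf20 belongs to a start at chr8:40308331, beside the divergent gene Micu3, and that of Fgfr2 to a far start at chr7:133123350 in the Ctbp2 promoter. Neither window had any H3K27me3 in any library. At Fgfr1 the best window lies at a start slightly downstream of the own one (chr8:25519837), and at Fgf5 and Fgf18 other starts were better covered in some libraries. At the own promoter, taken as the start of the APPRIS principal transcript, Fgf20 had 0 to 1504 bp of H3K4me3 in controls and 730 to 1120 bp in K27M, a difference of 28.4 bp ± 541, and Fgfr2 1062 to 1627 bp and 1380 to 1726 bp. With own promoters only, Fgf5, Fgf10 and Fgf20 were again the 3 genes lower in H3K27me3 in 5 of 5 pairs (10.3% of genes lower, 0.0962% higher), and Fgf10 and Fgfr1 the 2 higher in H3K4me3 (5.73% higher, 0.706% lower).

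Telencephalon and brainstem controls were compared to ask whether the promoters differed by region of origin. The 3 telencephalon and 2 brainstem controls overlapped in H3K27me3 for all 10 genes. Of all genes tested, 0.897% were higher and 2.35% lower in every telencephalon control. The 2 brainstem controls were at the limit of 3000 bp for Fgf3, Fgf9, Fgf10 and Fgf20, so higher telencephalon values could not be seen there. With 3 against 2 cultures the smallest two-sided exact permutation p is 0.2. Fgf5 averaged 2014 bp ± 1271 in telencephalon (n = 3) and 1334 bp ± 118 in brainstem (n = 2), and without telencephalon 59 it did not overlap, whereas 20.8% of all genes then did not. H3K4me3 did not overlap at 1 gene, Fgf20 (1968 to 2362 bp in telencephalon, 2427 and 2617 bp in brainstem), in the window beside Micu3. Over all genes 14.8% were lower and 0.925% higher in every telencephalon control. Without telencephalon 59, the number of genes not overlapping in H3K4me3 went from 1 to 9 of the 10, beside 53.2% of all genes.

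In K27M cultures no gene of the 10 separated the regions in H3K27me3, where 0.714% of all genes were higher and 3.55% lower in every telencephalon library. Fgf18, Fgfr1 and Fgfr2 were at 0 bp in every K27M library and could not separate. Fgf3 and Fgf9 reached the limit of 3000 bp in K27M libraries of both regions. The difference by K27M did not overlap between regions at 1 gene, Fgf15, where the brainstem pairs fell by 984 and 558 bp and the telencephalon pairs changed by 78, 295 and -496 bp. This difference of differences was 730 bp (exact permutation p = 0.2, the smallest possible), and 4.68% of all genes did not overlap by the same rule. It was not called in a window of 5000 bp on each side.

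By consensus peaks, 6 of the 10 genes were bivalent in brainstem controls (Fgf3, Fgf5, Fgf9, Fgf10, Fgf15 and Fgf20), against 4.59% of all genes, and 9 in telencephalon controls, against 7.30%. All genes here include those with neither mark, 66% in brainstem and 63.3% in telencephalon controls. The 10 genes were chosen with earlier results of these data known, so these shares are a description and not a test. Fgf4 had H3K27me3 only in brainstem and both marks in telencephalon controls, and Fgf18 and Fgfr2 had H3K4me3 only in brainstem and both in telencephalon. The telencephalon consensus rests on 3 cultures and the brainstem on 2. With cultures 59 and 61 alone the telencephalon number was 4, against 2.52% of all genes. Fgfr1 had H3K4me3 only in both. In K27M, 5 of the 10 were bivalent in brainstem, against 3.04% of all genes, and 6 in telencephalon, against 3.53%. Fgf4 then had H3K27me3 only in both regions, Fgf5 had H3K4me3 only in brainstem and both marks in telencephalon, and Fgf18 and Fgfr2 had H3K4me3 only in both.

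The rest of the pathway was read from a list of 63 genes. H3K27me3 was found in any library at 8 of 10 other secreted ligands, 4 of 4 intracellular FGF homologous factors, 2 of 3 other receptors, 3 of 4 co-receptors and carriers, 3 of 8 signal transducers, 5 of 15 feedback inhibitors and modulators, 1 of 6 target transcription factors and 6 of 13 heparan sulfate genes. Over all annotated genes, 14153 of 55536 had such a peak. Of the 32 with a peak in any library, 5 had one in every library, beside the 12.9% of all such genes. These 5 included 2 of the 10 other secreted ligands. H3K4me3 was in every library at 50 of the 63 list genes, beside 15934 of all 55536 annotated genes. In K27M 5 of the 32 (15.6%) were lower in H3K27me3 in 5 of 5 pairs and 0 higher, beside the 9.53% and 0.12% of all genes. These were Sulf1, an endosulfatase that trims heparan sulfate (-2059 bp ± 762), Fgf14, an intracellular factor that binds sodium channels (-1585 bp ± 1326), Flrt2, a membrane protein that binds FGF receptors (-1322 bp ± 380), Kl, the co-receptor Klotho (-891 bp ± 398), and Hs6st3, a heparan sulfate sulfotransferase (-868 bp ± 734, SD, n = 5 pairs each). Klb, the beta-Klotho co-receptor of endocrine FGFs, was the 1 gene of these 32 whose H3K27me3 in controls did not overlap by region, lower in telencephalon. By the same rule 2.35% of all genes were lower and 0.897% higher.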

How the data were processed

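The authors sequenced H3K27me3 and H3K4me3 ChIP libraries with matched inputs. Per the labels, reads were trimmed with Trim Galore (0.6.7) and cutadapt (3.4), aligned with BWA (0.7.17-r1188) to mm10, and peaks were called with MACS2 (2.2.7.1), broad for H3K27me3 and narrow for H3K4me3, per library against its own input. Fly chromatin was spiked in, and its use in peak calling is not given in the sources used here. The deposited lists give per peak a fold enrichment ratio and the −log10 of the p-value and q-value. An integer score, written by MACS2 and deposited by the authors, was not used. No counts or read depths were used, so mark below the peak threshold was not measured, and inputs were not used here.

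Peaks were merged per library and promoter base pairs counted in Python (3.11.15 with numpy and scipy), with GENCODE M21 (132850 distinct promoter windows; the study used a later release). No 2 lists were identical. K27M and control were compared over 5 matched cultures by the exact sign-flip permutation test (32 arrangements), with Benjamini-Hochberg adjustment over all genes with a peak of the mark, and called when all 5 pairs had 1 sign. Regions were compared by exact permutation (10 arrangements) and called when groups did not overlap. P-values measure the spread between cultures. Consensus peaks followed the MSPC rule with a stringent p of 1e-10 (H3K4me3) or 1e-08 (H3K27me3) and a weak p of 1e-06 or 1e-04. All 10 genes are named. Pathway genes are named when called, and the 3 genes most alike for members marked in 3 to 7 libraries. Functions were tested on simulated data. The members and lists were chosen with earlier results of these data known.

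The study describes cultures as matched. Deviations of promoter coverage from group means correlated between genotypes of 1 culture with r = 0.44, 0.28 and -0.16 in telencephalon 59, 60 and 61 for H3K27me3, with 0.62, 0.33 and 0.36 for H3K4me3, and with -0.03 in brainstem for both.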

Additional observations from a re-analysis of the deposited data

How the results depend on the processing

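The 3 ligands with less H3K27me3 in 5 of 5 pairs were Fgf5, Fgf10 and Fgf20 also with each culture left out (3 in each case), with equal peak numbers over all libraries or within each pair, with −log10 q of at least 3, with protein-coding transcripts and with own promoters. Equal peak numbers within pairs and own promoters were chosen after seeing the data. With a culture left out, 10.3% to 21.1% of all genes tested were lower in every remaining pair. The share was 7.17% with the q threshold and 11% with protein-coding transcripts. Without the replicate block, which asks that K27M and control not overlap within either region, the number was 1 (Fgf20), where 5.17% of genes were lower, and 0 for H3K4me3. For H3K27me3 it was 5 in windows of 5000 bp on each side, where Fgf3 and Fgf15 were added and 13.8% of genes were lower. With the union of promoter windows it was 4, where Fgf3 was added and 10.5% of genes were lower. Only Fgf5 and Fgf10 (2 genes) were left in windows of 1000 bp on each side, beside 7.14% of genes. The same 2 were left with fold enrichment of at least 3, beside 2% of genes. Genes marked in every library numbered 1 with fold enrichment of at least 3, beside 10.5% of all genes tested, and 6 to 7 with a culture left out, beside 13.1% to 17.9%. For H3K4me3 between control regions, the number was 0 with windows of 1000 bp on each side, where 10.3% of genes did not overlap. It was 0 with the union of promoter windows, beside 16.5%. With a culture left out it ran from 1 to 9, beside 20.9% to 53.2%. For H3K27me3 between control regions it ran from 0 to 1 with a culture left out, beside 5.38% to 32.3% of genes. Between K27M regions it ran from 0 to 2, beside 5.92% to 10.4%, and equal peak numbers gave 1 (Fgf5), beside 9.48%. For the difference by K27M between regions it was 0 with windows of 5000 bp, beside 4.72% of genes. With a culture left out it ran from 1 to 3, beside 7.76% to 37.6%. H3K4me3 lower in K27M stayed at 0, beside 0.015% of all genes without the replicate block and 4.48% without telencephalon 59. Bivalent genes in telencephalon controls numbered 4 with a peak required in every control, against 2.38% of all genes. With cultures 59 and 61 they also numbered 4, against 2.52%. The cause of these changes was not tested. Of 180 single-gene differences under other settings, 158 moved by less than 1 SD over pairs, 22 moved further and 0 called differences changed sign. With 5 pairs the two-sided exact sign-flip test used here cannot pass 0.05, and coverage stops at 3000 bp.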
